A study of Mus musculus with 8 samples.

Results

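The H3K56ac peaks at 10 genes of glucose use and hypoxia signalling were described in muscle stem cells (MuSCs), the stem cells of skeletal muscle. The genes were Slc2a1, Hk2, Pfkl, Pfkfb3, Aldoa, Gapdh, Ldha, Pdk1, Pdk4 and Hif1a, out of 21938 protein-coding genes, and they were chosen because SIRT6 has been linked to glycolysis and to the hypoxia-inducible factor (HIF) in other cell types. In mice without Sirt6 in the muscle lineage, the study found no evidence that such glycolytic genes were switched on. Its figure legends still mark a significant difference among the glycolytic genes measured in MuSCs and in muscle, without naming the gene or direction. Every peak of the merged MuSC list that touched a gene, or the 10 kb on either side of it, was taken. This gave 59 of 105600 peaks.

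The study asked where H3K56ac, an acetylated lysine in the core of histone H3, lies in freshly isolated MuSCs and how it changes without the deacetylase SIRT6. Chromatin immunoprecipitation and sequencing was done in 4 groups, with 2 H3K56ac libraries and 2 input libraries (chromatin without the antibody step) from each genotype, Control and Sirt6mKO. The labels call the Control mice wild type, while controls elsewhere in the study carry Sirt6 fl/fl without Cre. The Sirt6mKO mice carried Sirt6 fl/fl together with Pax7-ICNCre, a Cre driven by the Pax7 promoter that deletes Sirt6 in the whole skeletal muscle lineage and not in MuSCs alone. All mice were on a C57BL/6 background, the labels name no treatment and no age, and MuSCs were sorted by surface proteins or by a fluorescent reporter. One list of merged peaks was analysed, in which every peak has a position and nothing else. Because no column separates the genotypes or the libraries, each peak below belongs to the merged set, its height and the reads behind it are not in the list, there is no replicate error, and no difference between Sirt6mKO and Control could be tested.

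Glycolysis turns glucose into pyruvate, which is either reduced to lactate by lactate dehydrogenase or passed into mitochondria by the pyruvate dehydrogenase complex. The kinases PDK1 and PDK4 switch that complex off, and so direct carbon away from mitochondria. HIF-1, a dimer of HIF-1α (encoded by Hif1a) and ARNT, is stabilised at low oxygen, binds the hypoxia response element (HRE) and switches on glucose transport, glycolytic enzymes and PDK1. Acetylated histone H3 marks active promoters and enhancers, and MuSCs are known to move from mitochondrial metabolism towards glycolysis when they leave quiescence.

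All 10 genes had an H3K56ac peak over a transcription start site (TSS). The same was true of 62.1% of all protein-coding genes, and of 80 of the 83 nuclear oxidative phosphorylation subunit genes (96.4%), which make up the respiratory chain and ATP synthase. It was true of 7 of 1466 olfactory and vomeronasal receptor genes (0.477%) of the nose, taken as a silent reference. The share at the 10 genes was thus close to that of another large set of metabolic genes. Of the 80 TSSs annotated to the 10 genes, 66 lay in a peak. No such share over all coding genes stands beside this count, so it does not set the 10 genes apart.

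The widest TSS peak of each gene ran from 2362 bp at Slc2a1 to 8484 bp at Pdk4. The median over the 10 genes was 3532 bp, beside 3458.5 bp over the 13624 protein-coding genes with a TSS peak and 3403.5 bp over the oxidative phosphorylation genes. Pdk4 and Pfkfb3 stood apart from the other 8, with TSS peaks of 8484 and 7516 bp that were wider than those of 93.8% and 91.1% of the coding genes with one. TSS peaks of at least 5 kb were found at these 2 of the 10 genes and at 3342 coding genes. These are 15.2% of all coding genes, a base that includes genes without a TSS peak, and a larger share of the 13624 with one. Hk2 followed with 4902 bp. This order depended on how the list splits neighbouring intervals. With intervals less than 1 kb apart joined, Hif1a came first with 10214 bp, followed by Pfkfb3 with 9192 bp, Pdk4 with 8484 bp and Aldoa with 6630 bp. Without joining, the 7 genes other than Pdk4, Pfkfb3 and Hk2 lay between 2362 and 3628 bp. This is inside the middle range of all coding genes with a TSS peak, whose quartiles were 2329 and 4965 bp.

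**Figure D1:**
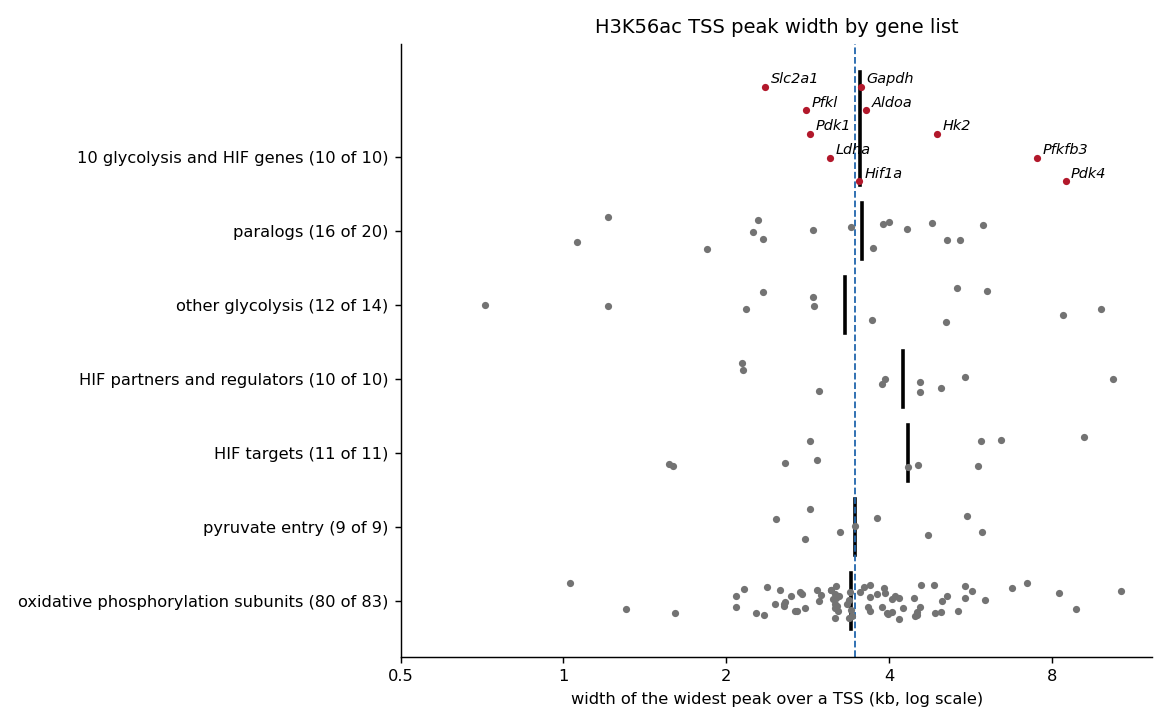
Width in kb (log scale) of the widest H3K56ac peak over a TSS, one point per gene, for the 10 glycolysis and HIF genes and 6 related lists. Black bars are list medians, the dashed line is the median of all coding genes with a TSS peak (3458.5 bp) and the counts give genes with a TSS peak. Pdk4 and Pfkfb3 lie to the right of the other 8 genes, which run from 2362 to 4902 bp.

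Glucose uptake and its first phosphorylation were represented by Slc2a1 and Hk2. Slc2a1 (ENSMUSG00000028645.11, chr4:119108711-119137983, plus strand) encodes the glucose transporter GLUT1. Its TSS peak of 2362 bp was the narrowest of the 10, reached from -610 to 1751 bp around the TSS, covered exon 1 and held all 5 annotated TSSs. A second peak of 598 bp began 6 bp after it. Further into intron 1 a 488 bp peak was followed by a peak of 2734 bp, from 10.8 to 13.5 kb, that was wider than the TSS peak and covered exon 2. Upstream lay peaks of 1536 bp (-3.66 to -2.13 kb) and 498 bp, and a 940 bp peak lay 8.71 kb past the gene. No other coding TSS was within 26228 bp of any of these 7 peaks.

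Of the paralogs, Slc2a3, which encodes the high-affinity transporter GLUT3, had a wider TSS peak (5113 bp), whereas the insulin-regulated transporter gene Slc2a4 had one of 2243 bp. Slc2a2, the transporter gene of liver and pancreatic islets, had no peak in the gene or within 10 kb.

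Hk2 (ENSMUSG00000000628.10, chr6:82725025-82774454, minus strand) encodes hexokinase 2, which traps glucose in the cell as glucose 6-phosphate. Its TSS peak of 4902 bp ran mostly into the gene, from -764 to 4137 bp, and covered exon 1 of 18. The 2 other peaks were small, 707 bp in intron 2 and 460 bp in intron 7, and the next peak outside the window was 71135 bp away. Hk1, the widely expressed isozyme, had a TSS peak of 5955 bp and 14 peaks in its window. Hk3 had a peak within 3 kb of a TSS and none over one.

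**Figure D2:**
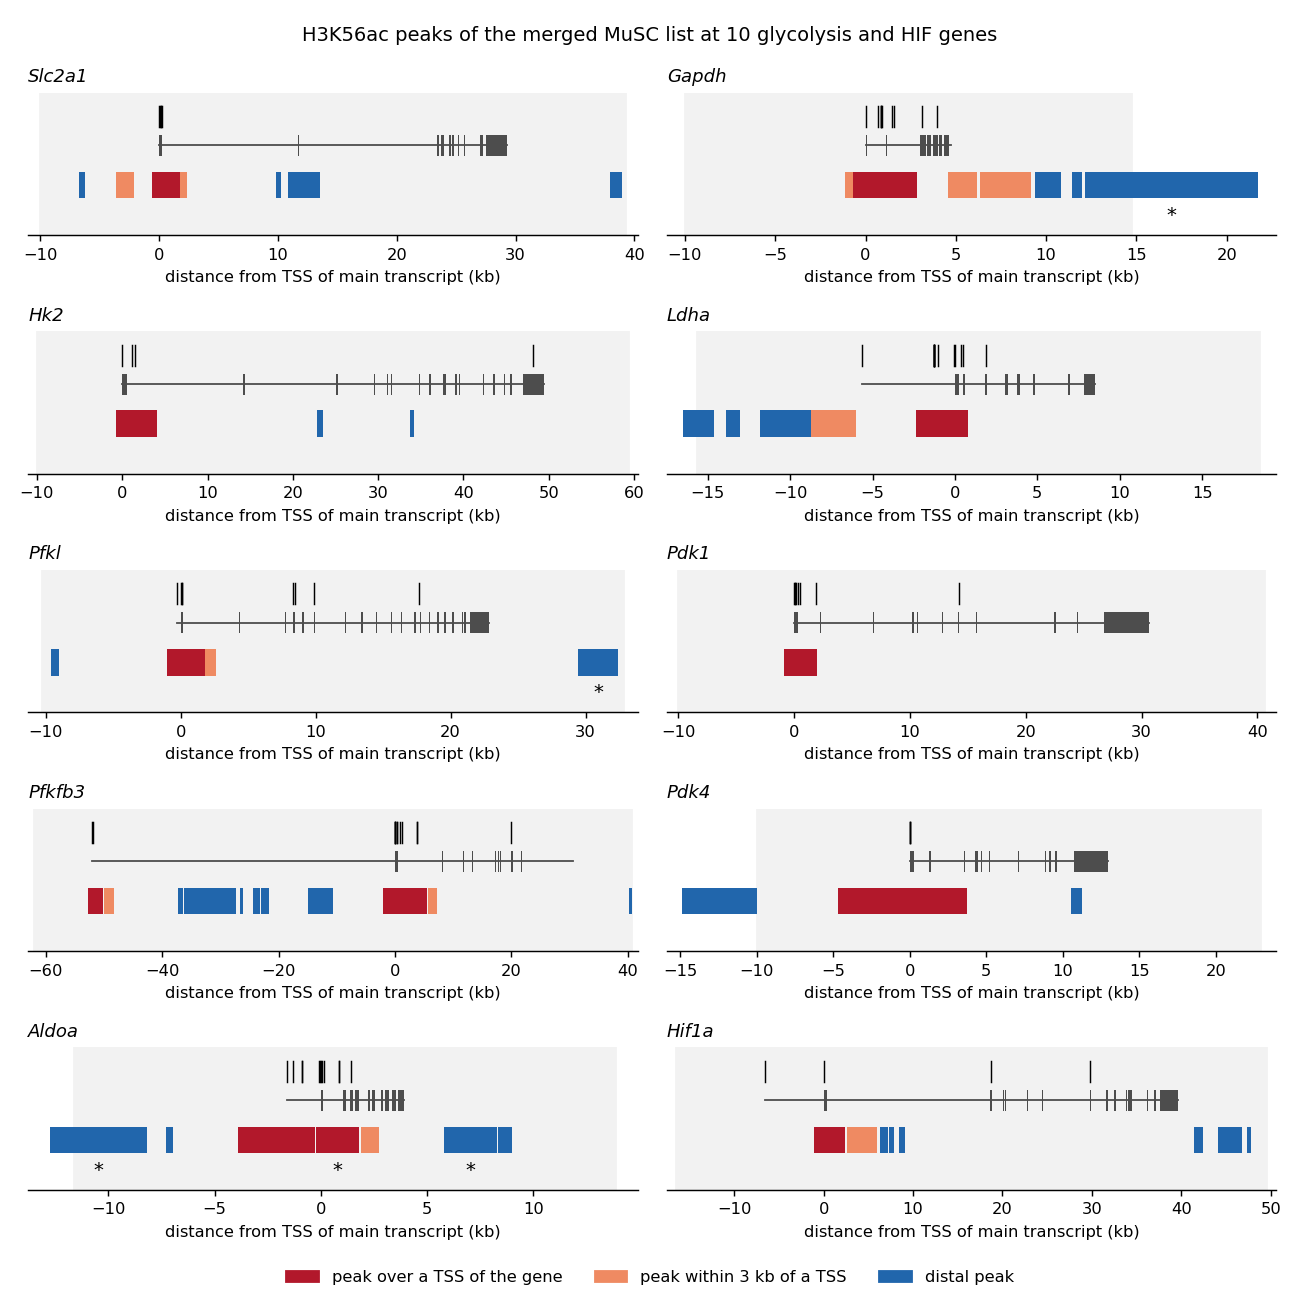
H3K56ac peaks (boxes, coloured by their relation to the TSSs of the gene) below each of the 10 genes, with exons of the main transcript (dark boxes), the gene body (line) and annotated TSSs (ticks); the x axis is the distance in kb from the TSS of the main transcript, with a scale of its own in each panel, and transcription runs to the right. Grey shading is the gene and 10 kb on either side, and stars mark peaks over a TSS of another coding gene entry. Pdk1 has 1 peak, and Pfkfb3 has 11.

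The step from fructose 6-phosphate is set by phosphofructokinase and by the PFKFB enzymes that make its activator. Pfkl (ENSMUSG00000020277.10, chr10:77986947-78010083, minus strand), the liver-type phosphofructokinase gene, had a TSS peak of 2812 bp over exon 1 of 22 and 4 of its 8 TSSs, and a 781 bp peak followed 33 bp later. Its 2 other peaks lay outside the gene. One of 583 bp was 8.76 kb upstream, and one of 2932 bp downstream lay over the TSS of 1810043G02Rik. The TSS peak of Pfkl was the narrowest of the phosphofructokinase genes, since those of the muscle gene Pfkm and the platelet gene Pfkp were 3891 and 4316 bp.

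Pfkfb3 (ENSMUSG00000026773.19, chr2:11471433-11554077, minus strand) encodes a bifunctional enzyme with high kinase activity that raises fructose 2,6-bisphosphate and so glycolytic flux. It had 11 peaks, the most of the 10 genes, against a median of 5 for coding genes within 20% of its length. The main TSS peak of 7516 bp reached from -1977 to 5538 bp and held 10 of the 13 TSSs, and 87.5% of the first intron was inside peaks. The 2 longest transcripts start at -51.8 and -52.0 kb, and a separate peak of 2655 bp lay over their start. Between these starts, in the first intron of the long transcripts, were 6 distal peaks. The widest measured 9034 bp, from -36.3 to -27.3 kb, and was wider than either TSS peak. It held the start of Gm37975, an entry that GENCODE marks as yet to be tested by experiment. A 4315 bp peak lay at -14.9 to -10.6 kb. In all, 30004 bp or 36.3% of the gene was inside peaks, more than in 91.1% of coding genes of like length, whose median was 6.91%. The TSS peaks of the paralogs Pfkfb4, Pfkfb2 and Pfkfb1 were 5399, 4004 and 2287 bp.

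Aldoa and Gapdh encode aldolase A and glyceraldehyde 3-phosphate dehydrogenase of the middle of the pathway and are the shortest of the 10 genes. Aldoa (ENSMUSG00000030695.16, chr7:126795234-126800751, minus strand) had 2 TSS peaks with a 22 bp gap. The one of 2018 bp held the main TSS and exons 1 to 3, and the one of 3628 bp just upstream held 4 of the 12 TSSs. An 863 bp peak over exons 5 and 6 came next, and 76.5% of the gene was inside peaks. Its neighbourhood is crowded. The 2018 bp peak also held a TSS of Fam57b on the other strand, a 2498 bp peak 1.89 kb past the gene lay over the TSS of Ppp4c, and a 368 bp peak lay over the pseudogene Gm44856. A further peak of 4564 bp lay over the start of a second coding entry that GENCODE also names Aldoa (ENSMUSG00000114515.2, chr7:126800790-126809108, minus strand), so which transcription unit these peaks belong to cannot be told apart. The TSS peak of the brain gene Aldoc was 1207 bp.

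Gapdh (ENSMUSG00000057666.18, chr6:125161715-125166467, minus strand) had a TSS peak of 3549 bp over exons 1 and 2 and 8 of its 10 TSSs. It was the only one of the 10 genes with a peak over its end, against 10.1% of all coding genes. That peak, of 1565 bp, touched exon 7, where the gene overlaps the end of Iffo1 on the opposite strand. A chain of 4 peaks continued past the gene through Iffo1, ending with one of 9577 bp over the TSS of Iffo1, the widest of the 59. Upstream a 429 bp peak sat 719 bp from the gene. The share of Gapdh inside peaks was 63.5%. The germ cell paralog Gapdhs had a TSS peak of 3404 bp.

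Ldha, Pdk1 and Pdk4 act on pyruvate. Ldha (ENSMUSG00000063229.15, chr7:46841475-46855627, plus strand) encodes the lactate dehydrogenase subunit that favours lactate production. Its TSS peak of 3116 bp was shifted upstream, from -2342 to 773 bp around the main TSS, held 11 of the 13 TSSs and covered exons 1 and 2. It was the only peak in the gene, and the other 6 formed a chain from -16.5 to -6.01 kb, outside the gene. The widest of the chain measured 2736 bp, at -11.5 to -8.72 kb, and the furthest, of 1870 bp, lay over the pseudogene Gm45308. The neighbouring paralog Ldhc, which is specific to testis, had 0 peaks in its own window. Ldhb, the gene of the heart subunit, had a TSS peak of 4793 bp.

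Both pyruvate dehydrogenase kinase genes had a TSS peak, but the 2 loci looked unlike each other. Pdk1 (ENSMUSG00000006494.11, chr2:71873224-71903858, plus strand) had a single peak of 2860 bp over exon 1 of 11 and 7 of its 8 TSSs, and the next peak was 76840 bp from the gene. Only 6.49% of Pdk1 was inside peaks, which made it the one gene of the 10 below the median of coding genes of like length (8.58%). Pdk4 (ENSMUSG00000019577.6, chr6:5483351-5496309, minus strand), a gene induced by fasting and fatty acids, had the widest TSS peak of the 10. Its 8484 bp ran from -4715 to 3768 bp and covered exons 1 to 3. A second wide peak of 4874 bp lay upstream at -14.9 to -9.99 kb, with the nearest other coding TSS 115873 bp away, and a 675 bp peak touched exon 11. The share of Pdk4 inside peaks was 34.3%, above that of 84.5% of coding genes of like length. The TSS peaks of Pdk2 and Pdk3 were 2896 and 1842 bp.

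Hif1a (ENSMUSG00000021109.13, chr12:73901375-73947530, plus strand) had 9 peaks. The TSS peak of 3515 bp held the main TSS and exon 1 of 15, but 1 of only 4 annotated TSSs. Another 4 peaks followed it in intron 1, which is 18.2 kb long and was 41.2% covered. The first of these measured 3349 bp, at 2.66 to 6.01 kb, and with gaps under 1 kb closed the TSS peak and its followers formed one region of 10214 bp, the widest such TSS region of the 10 genes. The other 4 peaks, of 398 to 1981 bp, lay 1.77 to 7.73 kb past the gene inside Gm49321, and one of them held a start of Gm15283, a non-coding gene antisense to Hif1a. No peak lay between intron 1 and the end of the gene. Epas1, which encodes HIF-2α, had a TSS peak of 3728 bp, and Hif3a one of 2334 bp.

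The sequence upstream of the TSS was read for the HRE core, the letters ACGTG or GCGTG on either strand, in the 250 bases before the main TSS. The core was present at all 10 genes, with 17 matches in all. It was present at 42.8% of all coding genes and at 55.4% of those with a TSS peak, so a match in a window of this length is common. With ACGTG alone it was present at 5 of the 10 genes (Hk2, Pfkfb3, Aldoa, Gapdh and Hif1a) and at 17.5% of all coding genes. As several of the genes are known for regulation by HIF, the letters are not independent of how the genes were chosen. The windows were inside an H3K56ac peak over their whole length at 9 genes and over 98.8% at Aldoa. At -0.125 kb, inside the window, 89.4% of all coding genes with a TSS peak were in a peak. The 6 sequences that follow stand for glucose uptake, its flux control, lactate formation, both pyruvate gates and the HIF subunit. They were read from the RefSeq copy of GRCm38.p6, run 5′ to 3′ on the strand of the gene towards the TSS, and carry the matches in capitals (CACGT and CACGC are the reverse strand of ACGTG and GCGTG). Bases past an earlier TSS of the gene in GENCODE or RefSeq were left out, 11 at Pfkfb3, 49 at Ldha and 37 at Hif1a.
Slc2a1 (chr4:119108461-119108710, plus strand): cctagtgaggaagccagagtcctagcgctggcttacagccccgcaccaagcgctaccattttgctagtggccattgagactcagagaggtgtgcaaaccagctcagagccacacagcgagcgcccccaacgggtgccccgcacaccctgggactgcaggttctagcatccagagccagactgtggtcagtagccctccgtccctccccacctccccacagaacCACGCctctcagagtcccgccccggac
Pfkfb3 (chr2:11502102-11502340, minus strand): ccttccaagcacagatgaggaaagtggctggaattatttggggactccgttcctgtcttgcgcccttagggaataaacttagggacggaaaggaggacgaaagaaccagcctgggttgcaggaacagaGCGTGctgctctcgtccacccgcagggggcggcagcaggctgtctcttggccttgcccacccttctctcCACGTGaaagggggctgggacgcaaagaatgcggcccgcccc
Ldha (chr7:46846881-46847081, plus strand): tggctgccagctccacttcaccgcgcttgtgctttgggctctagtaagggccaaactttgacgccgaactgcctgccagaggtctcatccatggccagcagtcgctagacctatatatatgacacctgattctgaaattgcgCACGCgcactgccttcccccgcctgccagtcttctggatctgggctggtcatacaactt
Pdk1 (chr2:71872974-71873223, plus strand): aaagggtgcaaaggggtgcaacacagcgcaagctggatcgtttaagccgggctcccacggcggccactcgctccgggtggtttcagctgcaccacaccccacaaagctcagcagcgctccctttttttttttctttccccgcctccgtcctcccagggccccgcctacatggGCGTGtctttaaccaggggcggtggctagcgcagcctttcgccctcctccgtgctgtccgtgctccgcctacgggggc
Pdk4 (chr6:5496310-5496559, minus strand): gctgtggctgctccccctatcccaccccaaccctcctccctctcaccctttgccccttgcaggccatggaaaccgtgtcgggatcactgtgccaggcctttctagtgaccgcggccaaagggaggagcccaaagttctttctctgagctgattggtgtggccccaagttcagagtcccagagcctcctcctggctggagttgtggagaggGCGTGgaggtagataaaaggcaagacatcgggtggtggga
Hif1a (chr12:73907654-73907866, plus strand): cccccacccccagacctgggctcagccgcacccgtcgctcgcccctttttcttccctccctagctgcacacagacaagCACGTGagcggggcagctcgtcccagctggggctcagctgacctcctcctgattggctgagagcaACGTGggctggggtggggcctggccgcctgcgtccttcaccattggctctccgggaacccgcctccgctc

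The matches did not keep one position. The nearest to the TSS was the second match of Ldha, with its first base at -9, among the bases left out above. Slc2a1 and Pdk4 had theirs at -27 and -40, Pdk1 at -78, Pfkl at -99 and Aldoa furthest away at -239. In Pfkfb3 and Hif1a the letters CACGTG, which read the same on both strands and also form an E-box, gave overlapping matches at -53 and -172. CACGTG was found at these 2 genes and at 6.57% of all coding genes. The GC box GGGCGG was found at 6 of the 10 genes and at 41.3% of all coding genes. The upstream windows of the 10 genes had a median GC content of 62.0%, against 59.6% over coding genes with a TSS peak, and a median ratio of observed to expected CpG of 0.618, against 0.711. Pdk4 and Gapdh had the lowest CpG ratios, 0.267 and 0.261.

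At 8 of the 10 genes the peak over the main TSS reached further downstream than upstream, with Ldha and Pdk4 as the exceptions. This was also the more common form among all genes, at 64.95% of the 12554 coding genes whose main TSS was in a peak. The median reach of the 10 genes was 946.5 bp upstream and 2211 bp downstream, beside 1326 and 1789.5 bp over those coding genes. At 2.375 kb downstream, 7 of the 10 genes were inside a peak, compared with 40.8% of all coding genes with a TSS peak. With 10 genes the share moves in steps of 10%, and further out it lay on either side of that of all genes. At -5.125 kb it was 0%, compared with 15.2%, and at -10.875 kb it was 40%, compared with 14.2%, from Pfkfb3, Aldoa, Ldha and Pdk4.

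**Figure D3:**
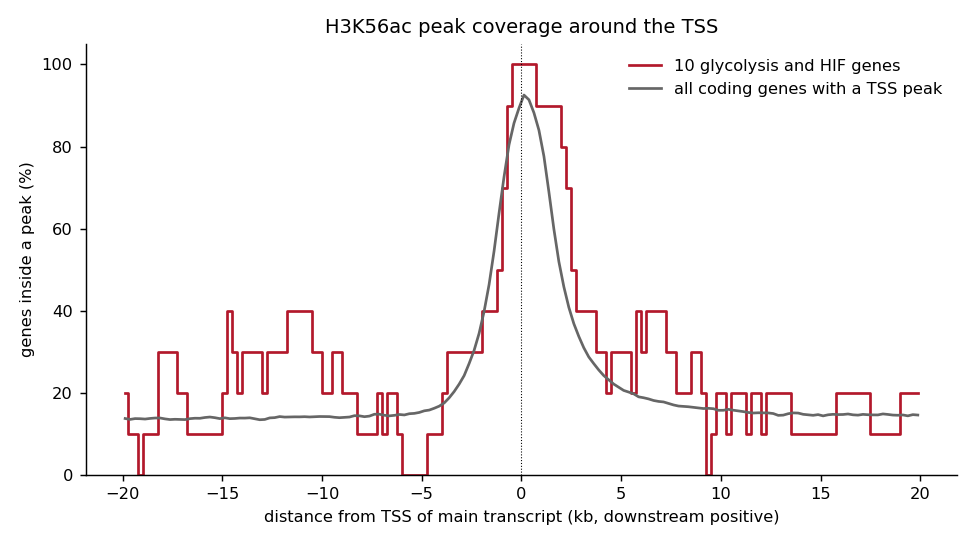
Share of genes (%) inside an H3K56ac peak at each distance (kb) from the TSS of the main transcript, in bins of 250 bp, for the 10 glycolysis and HIF genes (red steps, 10% a gene) and for the 13624 coding genes with a TSS peak (grey line). All 10 genes are covered at the TSS, and the red line stays above the grey one from the TSS to 4.125 kb downstream.

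Of the 129 exons of the 10 main transcripts, 22 were touched by a peak and 19 were covered over every base. Over all coding genes 15% of the exons were touched (19% for genes with a TSS peak) and 12.6% were covered. Exon 1 was covered at all 10 genes, compared with 54.6% of all coding genes and 88% of those with a TSS peak. At 5 of them (Hk2, Pfkl, Pfkfb3, Pdk1 and Hif1a) no other exon was touched, and the last exon was touched at Gapdh and Pdk4 alone. First introns carried a peak at all 10 genes, compared with 67.3% of all coding genes with an intron and 94.5% of those with a TSS peak, and the covered part of intron 1 ran from 26.4% at Hk2 to its whole length at Aldoa, Gapdh, Ldha and Pdk4, whose first introns were at most 1.08 kb long.

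The share of the gene body inside peaks ran from 6.49% at Pdk1 to 76.5% at Aldoa, with a median of 20.8%. The median was 7.82% over all coding genes and 16.8% over those with a TSS peak. Short genes are filled by a TSS peak of ordinary width, so each gene was also set beside coding genes within 20% of its length. All but Pdk1 were above the median of those genes. Aldoa (percentile 93.5), Pfkfb3 (91.1) and Gapdh (87.7) ranked highest, but for Aldoa and Gapdh that comparison median was 0, because most coding genes of their length had no peak.

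**Figure D4:**
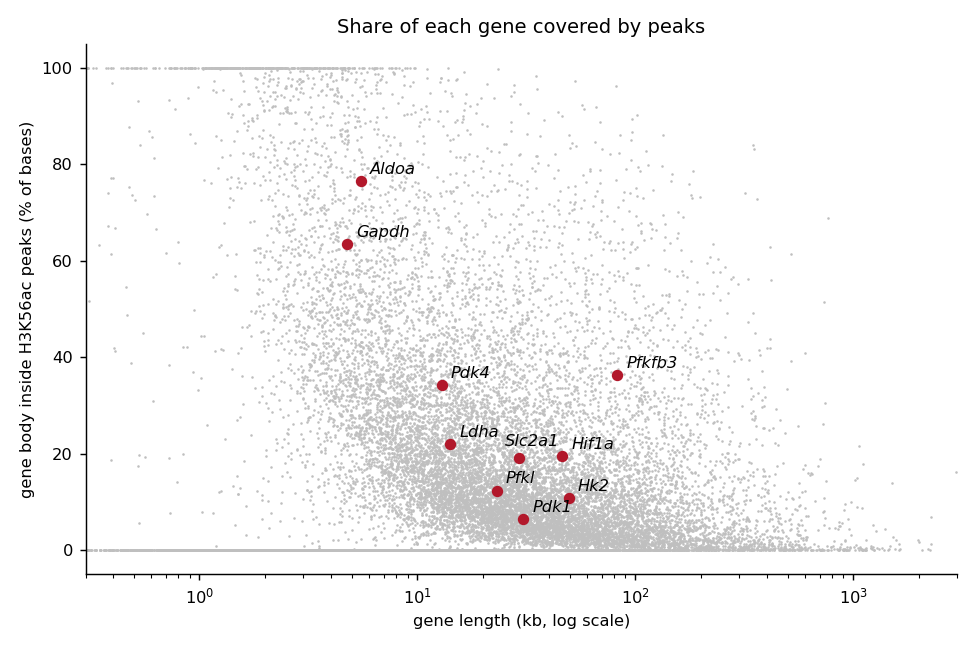
Share of each gene body inside H3K56ac peaks (%) against gene length (kb, log scale), with all 21938 coding genes in grey and the 10 glycolysis and HIF genes in red. Aldoa and Gapdh, the shortest of the 10, are at 76.5% and 63.5%, Pfkfb3 is at 36.3% despite its length, and Pdk1 is lowest at 6.49%.

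Of the 59 peaks, 12 lay over a TSS of the gene, 12 more lay within 3 kb of one and 35 were distal. The median widths were 3315.5 bp for TSS peaks and 826 bp for distal peaks. Distal peaks were present at 9 of the genes, Pdk1 being the exception, compared with 60.4% of all coding genes and 79.2% of those with a TSS peak. Of the 35 distal peaks, 14 lay in the gene, 9 upstream and 12 downstream of it, and 4 lay over a TSS of another coding entry. The widest of the remaining 31 were the 9034 and 4315 bp peaks of Pfkfb3, the 4874 bp peak of Pdk4, the 2736 bp peak of Ldha and the 2734 bp peak of Slc2a1. For sequence, the 19 distal peaks more than 3 kb from a TSS of any gene were set beside all peaks of that kind. The letters TGANTCA of the AP-1 site (N is any base, both strands) were present in the central 300 bases of 2 of the 19, at Slc2a1 and Hk2, compared with 9.42% of all such peaks. The E-box CAGCTG, the form preferred by myogenic factors, was present in 5 of the 19, compared with 17.3%.

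Many of the intervals were neighbours rather than separate sites. Of the 49 gaps between consecutive peaks of a window, 27 (55.1%) were under 1 kb and 10 under 50 bp, the smallest being 3 bp. Over the whole list 44.5% of gaps were under 1 kb. The number of peaks per gene had a median of 7 and exceeded the median of coding genes of like length at 8 of the 10 genes, with Pdk1 and Hk2 below it. Those sets again include genes without a TSS peak. The median was 3 over all coding genes and 4 over those with a TSS peak. At the edge of the window, the furthest peak that still counted was the 4874 bp peak of Pdk4, 9991 bp from the gene. The nearest that did not were peaks of 383 bp at Pfkfb3 (10741 bp), 938 bp at Hif1a (10782 bp) and 2110 bp at Ldha (11060 bp).

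Among the rest of the glycolytic pathway, 12 of 14 genes had a TSS peak, with a median width of 3310 bp. The widest were those of Pkm (pyruvate kinase, 9867 bp), Eno3 (muscle enolase, 8388 bp) and Eno1 (the widely expressed enolase, 6056 bp). The testis gene Pgk2 and the liver and red cell gene Pklr had none. Of the 20 paralogs, 16 had a TSS peak, with a median of 3566 bp, and Slc2a2, Hk3 and Ldhc were among those without. Within its paralog group the listed gene had the widest TSS peak for Pfkfb3, Aldoa, Gapdh and Pdk4, and not for the other 6. The groups held only 2 to 4 genes each, so a first place is common by group size alone.

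The HIF pathway and pyruvate entry genes all had a TSS peak, compared with 62.1% of all coding genes. The 10 HIF partners and regulators had a median of 4245.5 bp and were led by Cited2 (10357 bp), which competes with HIF for its coactivators and was covered over its whole length, and by Arnt (5526 bp), which encodes the partner of HIF-1α, and the coactivator gene Crebbp (4989 bp). The 11 HIF targets had a median of 4343 bp, with P4ha1 (collagen prolyl hydroxylase, 9187 bp), Vegfa (a vascular growth factor, 6432 bp) and Ddit4 (an inhibitor of mTOR signalling, 5905 bp) as the widest. The 9 genes of pyruvate entry had a median of 3458 bp, led by the mitochondrial pyruvate carrier genes Mpc2 (5943 bp) and Mpc1 (5566 bp) and by Pdhx (4728 bp), a structural part of the pyruvate dehydrogenase complex. An HRE core in the upstream window was found at 9 of the 11 HIF targets (81.8%), 6 of the 9 pyruvate entry genes (66.7%) and 6 of the 10 partners and regulators. It was found at 11 of the 20 paralogs (55.0%), 42 of the 83 oxidative phosphorylation genes (50.6%) and 5 of the 14 other glycolysis genes (35.7%). The share was 42.8% over all coding genes and 55.4% over those with a TSS peak. The HIF targets and pyruvate entry genes lay above both shares and the other glycolysis genes below both.

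The identity of the sorted cells was read from marker genes. All 7 MuSC markers (Pax7, Myf5, Myod1, Cdh15, Itga7, Vcam1 and Calcr) had a TSS peak, compared with 62.1% of all coding genes. None of the 4 blood markers, Ptprc, Cd3e and Itgam among them, had one. The MuSC marker peaks had a median width of 12012 bp and ran from 599 to 30239 bp, with 5 of the 7 above the median of coding genes. TSS peaks were also present at 3 of 4 endothelial markers (not Cdh5), 2 of 3 fibro-adipogenic markers (not Ly6a) and 2 of 5 myofiber markers (not Myh2, Acta1 or Ckm). Any annotated start counted, and the widest such peak of Pecam1 lay over a start far inside the gene. The endothelial and fibro-adipogenic shares, 75% and 66.7%, were thus not below that of all coding genes. The widest endothelial TSS peak, of 12975 bp, exceeded the MuSC marker median. The study reanalysed its sorted cells and reported that their purity was incomplete. The part of other cells in the peaks of the 10 genes was not tested.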

How the data were processed

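The authors aligned reads with Bowtie to mm10, leaving out reads that aligned to several places, discarded duplicate reads, called peaks with MACS2, removed blacklisted regions and merged overlapping peaks. They deposited 1 list of merged intervals. Per the file itself it holds positions only, its score column is 0 throughout, and 0 columns hold values per sample. Which libraries were merged is not given in the sources used here. Merging widens and fuses peaks, and reads shared with near-identical copies such as pseudogenes are lost, an effect not tested here. Genotypes could not be compared. The planned test of Sirt6mKO against Control needs counts per sample and was not run.

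Peaks were compared with GENCODE vM21 and the RefSeq copy of GRCm38.p6, the build of mm10, in Python 3.11.15 with numpy 2.4.6 and pysam 0.24.0. An overlap is at least 1 bp. The main transcript is the APPRIS principal one, then basic, then that with the longest coding sequence. A symbol with several gene entries was given to the entry that RefSeq links. RefSeq promoter windows, 15 in all, were found for all 10 genes. Distal peaks touch no window of 3 kb around a TSS of the gene. All values are descriptions without tests. The functions recovered 200 of 200 simulated TSS peaks with their widths. The named genes are the 10 genes, their paralogs, and from each related list those without a TSS peak and the 3 widest, besides genes whose TSS shares a peak. The single values of 3 listed genes are not reported here. The genes, lists and rules were chosen with earlier results of these data known, and the CACGTG, GC box, AP-1 and CAGCTG searches after these data were opened.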

Additional observations from a re-analysis of the deposited data

How the results depend on the processing

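A peak over a TSS was found at all 10 genes with promoters of 1 or 3 kb, with TSSs of protein-coding transcripts, with the main TSS alone, with intervals of at least 500 bp and with intervals less than 1 kb apart joined. Over all coding genes the share was 65.4% and 67.8% with promoters of 1 and 3 kb and 57.2% with the main TSS alone. It was 61.8% with intervals of at least 500 bp and 62.5% with intervals joined. Joining moved most values. The number of peaks fell to 32, the median TSS width rose to 4454 bp (4394.5 bp over all coding genes) and the median covered share to 22.1%. The median TSS width was 3315.5 bp with the main TSS alone, and the covered share was 24.3% with each gene extended by 3 kb. The number of peaks was 51 with intervals of at least 500 bp, 44 with 5 kb on either side and 75 with 20 kb. The HRE core was at 10 genes in 1000 bases upstream (72.4% of all coding genes) and at 5 with ACGTG alone. Taking the second gene entry of Aldoa, an alternative chosen after seeing the data, gave 61 peaks, 9 genes with an HRE core and 18 covered exons, and left both medians as they were. No paired analysis was possible because no value belongs to a single library. For the same reason the planned Sirt6mKO against Control fit, its other tool, its filter and the leaving out of each replicate were not run. The list gives no reads per peak, and neither peak height nor the absence of a peak can be weighed against sequencing depth.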
